A study of Mus musculus with 3 samples.

Results

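Btk, Tec, Txk and Bmx, members of the TEC family of cytoplasmic tyrosine kinases, were found by symbol in a read count table of 17857 genes. All 4 were measured and all 4 passed the minimum of 10 reads summed over the libraries, as did 15490 genes in all. The RNA came from cells sorted for the display of c-kit and Ly6C and the lack of CD11c, a gate meant for precursor cells, out of lymph nodes that drained B16F10 melanomas in C57BL/6J mice. The tumours had been implanted on both sides and had grown for 14 days without treatment, and the nodes were pooled before sorting. The 3 libraries, replicates 1, 2 and 3, are repeat experiments on this 1 group, with no second population, so every test here sets a level against a fixed reference or 1 kinase against another.

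TEC kinases act just below antigen receptors and other immune receptors. In most of them a pleckstrin homology domain binds the lipid PIP3, which phosphoinositide 3-kinases make at the membrane, and a SRC family or SYK family kinase then phosphorylates the TEC kinase, which goes on to activate phospholipase C gamma. BTK serves the B cell receptor and several receptors of myeloid cells, and its loss impairs B cell development. TXK serves the T cell receptor, being anchored by a palmitoylated cysteine string in place of the pleckstrin homology domain. TEC is used across blood lineages, and BMX is known from endothelium, granulocytes and monocytes. The series' title names BTK, with the tryptophan-degrading enzyme IDO, as a block on the differentiation of inflammatory dendritic cells in tumours.

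In mm10 all 4 genes lie on the minus strand. Btk (Entrez gene 12229) spans chrX:134542334-134583628 and Bmx (Entrez gene 12169) spans chrX:164192842-164258193. Txk (Entrez gene 22165) spans chr5:72695978-72752992 and Tec (Entrez gene 21682) spans chr5:72755718-72868654, so these 2 neighbours point the same way with 2725 bases between them. The coordinates are those of RefSeq and cover exons and introns together. In the GENCODE M21 annotation the exons of the 4 genes overlap no exon of another gene on either strand. A processed pseudogene lies in an intron of Btk and another in an intron of Txk, both on the opposite strand, and an uncharacterised locus lies in an intron of Tec on the same strand.

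The promoters were read from the RefSeq promoter table (GRCm38.p6, minus strand) as the stretches from 250 to 51 bases before its starts, 200 bases each. They span chrX:134583191-134583390 (Btk), chr5:72752828-72753027 (Txk, the more upstream of 2 starts in that table), chrX:164258244-164258443 (Bmx) and chr5:72868499-72868698 (Tec). The RefSeq gene spans given above reach 488 (Btk), 215 (Txk) and 206 (Tec) bases further upstream than the starts in that table, so that all 200 bases of the Btk stretch, 165 of Txk and 156 of Tec lie inside the annotated gene, while that of Bmx lies outside. No GENCODE exon reaches into them. Only the bases outside the gene spans are printed, chr5:72868655-72868698 for Tec, chr5:72752993-72753027 for Txk and the whole stretch for Bmx, because Tec differs in composition from its neighbour Txk and from Bmx. Capitals mark every CG pair.
Tec: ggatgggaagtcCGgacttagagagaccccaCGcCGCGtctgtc
Txk: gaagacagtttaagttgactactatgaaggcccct
Bmx: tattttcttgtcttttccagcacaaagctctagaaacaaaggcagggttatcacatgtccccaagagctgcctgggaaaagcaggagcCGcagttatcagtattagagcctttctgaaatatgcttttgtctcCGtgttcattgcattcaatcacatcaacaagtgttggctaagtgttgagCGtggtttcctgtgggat

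Over the 200 bases, Tec held 20 CG pairs, more than 90.5% of the 32841 promoter windows of the same length and place, and had a GC content of 67%. Btk and Txk held 2 CG pairs each, at GC contents of 49.5% and 41%, and Bmx held 3 at 44%. The median window held 4, with a GC content of 51.5%. The letters GGGCGG, read on both strands, were found once in Tec and not in the other 3, and occur in 24.6% of all windows. The letters GGAA, the core bound by ETS factors, read on both strands, were found 5 times in Tec, 2 times in Btk, 2 times in Txk and 3 times in Bmx, and 89.2% of all windows hold them at least once. TATAAA was found in none of the 4 windows and occurs in 9.14% of all windows. These are matches of letters only.

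Totals were 9077195, 13885509 and 13861430 counts in replicates 1, 2 and 3. Levels are normalised read counts, CPM, scaled to a common library size. They were tested against 1 CPM, a level near the low-count range, and against 50 CPM, a level well above it. Comparisons between genes use CPM per kilobase of the deposited gene length, 2535 bases for Btk, 2656 for Tec, 2342 for Txk and 3005 for Bmx, near the median of 2573 over all genes. T cell markers were read higher than stem and progenitor markers, with medians of 378 and 2.57 CPM. Of 7 stem and progenitor markers, 6 lay below 50 CPM in edgeR's test, Kit among them (66.7% of all genes). The other, Myb, lay above it (19.9%). With only 7 genes, no departure from the table as a whole can be read from these counts. Of 10 monocyte markers, 4 lay above 50 CPM and 3 below it. The make-up of the sorted cells was not tested. Kit, which encodes c-kit, was read at 9.83, 5.35 and 5.92 CPM, the Ly6C gene Ly6c2 at 11.5, 121 and 41.2 CPM, and the progenitor marker Cd34 at 1.06, 0 and 0.152 CPM. All 11 T cell markers lay above 50 CPM (19.9% of all genes) in edgeR's test. The kinase levels below are those of the sorted cells as a whole. Which of the sorted cells held a kinase's RNA cannot be told apart from bulk libraries, nor can fewer cells of a type from less RNA per cell.

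Txk had the highest level of the 4 kinases. Its level was 91.0 CPM in replicate 1, 189 in replicate 2 and 144 in replicate 3 (861, 2656 and 1895 counts). Replicate 2 was high and replicate 1 low, and the 95% Poisson intervals of the 3 libraries, 85.0 to 97.3, 182 to 197 and 138 to 151 CPM, did not overlap. The mean was 141 ± 49.3 CPM (SD, n = 3), above 91.1% of the genes tested. Per kilobase the mean was 60.4 ± 21.03 CPM (SD, n = 3), above 94.5% of the genes tested. Txk lay above 1 CPM (log2 difference 7.12, adjusted p = 2.17e-12, edgeR's quasi-likelihood test) and was the only member above 50 CPM (log2 difference 1.50, a 2.83-fold level, adjusted p = 2.52e-04, edgeR). Each of the 3 libraries lay above 50 CPM.

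Tec, the family's widely used member, was the next. Its level was 33.1 CPM in replicate 1, 52.8 in replicate 2 and 40.5 in replicate 3 (313, 741 and 533 counts). Its libraries stood in the same order as those of Txk, with replicate 2 high and replicate 1 low, at a smaller span of 1.60-fold against 2.08-fold for Txk. Their Poisson intervals, 29.5 to 36.95, 49.1 to 56.8 and 37.1 to 44.1 CPM, did not overlap. The mean was 42.1 ± 9.99 CPM (SD, n = 3), above 71.9% of the genes tested. Tec lay above 1 CPM (log2 difference 5.37, adjusted p = 3.89e-11, edgeR) and was not separated from 50 CPM (log2 difference -0.25, adjusted p = 0.222, edgeR). Without replicate 2 it lay below 50 CPM (log2 difference -0.45, adjusted p = 0.0471, edgeR), and over all 11 alternatives the adjusted p ran from 0.0471 to 0.779.

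Btk, the kinase in the series' title, had 27.1 CPM in replicate 1, 17.9 in replicate 2 and 12.6 in replicate 3 (256, 251 and 166 counts). Replicate 1 was high and replicate 3 low, an order unlike that of Txk and Tec, and the shallowest library gave more reads of Btk than either deeper one. Replicate 1 stood apart over the whole table, with 632 genes at 0 counts against 3788 in replicate 2 and 2199 in replicate 3, and 45.2% of the genes tested were highest in it. The order of Btk was that of 14.9% of the genes tested. The Poisson intervals, 23.8 to 30.6, 15.8 to 20.3 and 10.8 to 14.7 CPM, did not overlap. The mean was 19.2 ± 7.31 CPM (SD, n = 3), above 57.4% of the genes tested, and 7.57 ± 2.88 CPM per kilobase (SD, n = 3), above 55.8% of them. Btk lay above 1 CPM (log2 difference 4.23, an 18.8-fold level, adjusted p = 6.37e-09, edgeR) and below 50 CPM (log2 difference -1.38, 2.61-fold, adjusted p = 0.00245, edgeR). Both calls held in all 11 alternatives.

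Bmx was the lowest of the 4. It had 2.54 CPM in replicate 1, 3.14 in replicate 2 and 7.22 in replicate 3 (24, 44 and 95 counts). Replicate 3 was high, 2.84-fold over replicate 1 and 2.30-fold over replicate 2, and its Poisson interval of 5.84 to 8.82 CPM lay apart from those of replicate 1 (1.62 to 3.77 CPM) and replicate 2 (2.28 to 4.21 CPM), which overlapped. The mean was 4.30 ± 2.55 CPM (SD, n = 3), above 36.4% of the genes tested. Bmx lay above 1 CPM (log2 difference 2.08, adjusted p = 5.79e-04, edgeR) and below 50 CPM (log2 difference -3.54, 11.6-fold, adjusted p = 0.00136, edgeR). Without replicate 3 it was not separated from 1 CPM (log2 difference 1.52, adjusted p = 0.141, edgeR).

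**Figure D1:**
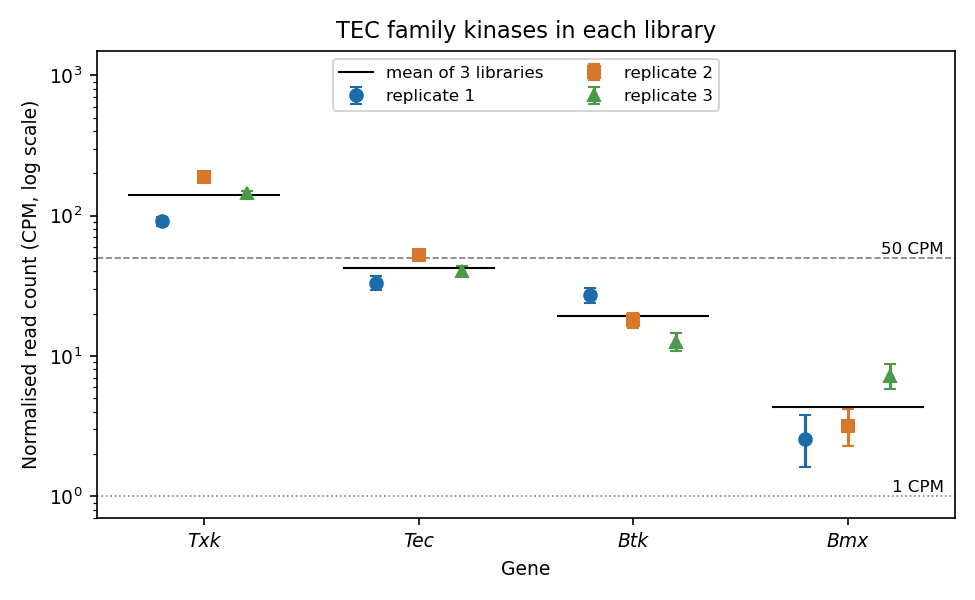
Normalised read counts (CPM, log axis) of Txk, Tec, Btk and Bmx in each library, with exact 95% Poisson intervals for counting error, the mean of 3 libraries as a black line and the references of 50 and 1 CPM as grey lines. Every library of Txk lies above 50 CPM and every library of Btk and Bmx below it, while Tec has 1 library above (52.8 CPM) and 2 below.

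All 4 members lay above 1 CPM, where 68.6% of the genes tested did. Above 50 CPM lay 1 of 4, against 19.9% of the genes tested, and below 50 CPM lay 2 of 4, against 66.7%. With only 4 members, no departure from the table as a whole can be read from these counts. Without replicate 3 the share of all genes below 50 CPM was 36.8%, and 2 of 4 members still lay below it. The median member had a mean of 30.7 CPM, against 12.4 CPM for all genes tested (11.7 against 5.50 CPM per kilobase). The spread between libraries beyond counting noise, edgeR's biological coefficient of variation, was 27.8% for Tec, 29.3% for Txk, 35.9% for Btk and 65.5% for Bmx, with a median of 39.5% over the genes tested. Bmx was the only member above that median.

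Per kilobase of the deposited length the order was Txk, Tec, Btk and Bmx in each of the 3 libraries. The ranges over the libraries of no neighbours in this order overlapped. Txk's lowest library (38.8 CPM per kilobase) lay above Tec's highest (19.9), Tec's lowest (12.5) above Btk's highest (10.7), and Btk's lowest (4.97) above Bmx's highest (2.40). Btk and Tec came closest in replicate 1, where they stood at 10.7 and 12.5 CPM per kilobase.

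Within libraries, the 6 pairs of members were compared as log2 differences of CPM per kilobase. Txk exceeded Tec by 1.64, 2.02 and 2.01 in replicates 1, 2 and 3 (mean 1.89 ± 0.22 SD, 3.71-fold). This was the steadiest pair. Txk exceeded Btk by 1.86, 3.52 and 3.63 (mean 3.00 ± 0.99 SD, 8.02-fold) and Bmx by 5.49 ± 0.80 (45.02-fold). Tec exceeded Btk by 0.22, 1.49 and 1.62 (mean 1.11 ± 0.77 SD, 2.16-fold), a difference close to 0 in replicate 1, and Bmx by 3.60 ± 0.83 (12.1-fold). Btk exceeded Bmx by 3.66, 2.76 and 1.05 (mean 2.49 ± 1.33 SD, 5.62-fold). Each difference had the same sign in 3 of 3 libraries and gave p = 0.25 in a two-sided exact sign-flip permutation test, the smallest value possible with 3 libraries (adjusted over the 6 pairs, 0.25). The lead of Txk depends on its length. The union of all GENCODE exons comes to 10955 bases for Txk. With such unions as lengths, the mean difference of Txk from Tec was 0.16 (1.12-fold). In replicate 1 Txk then lay below Tec (-0.09) and Btk (-0.05).

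Of the CPM per kilobase summed over the 4 kinases, Txk held 61.8%, 74.3% and 73.1% in replicates 1, 2 and 3. Tec held a nearly even share, with 19.8%, 18.3% and 18.1%. Btk held 17.0%, 6.49% and 5.92%, so its share in replicate 1 was well above that in the other 2 libraries. Bmx held 1.34%, 0.959% and 2.86%. These shares rest on the deposited lengths. With the union of GENCODE exons as length, chosen after seeing the data, Txk held 31.3%, 45.4% and 43.4%, Tec 33.3%, 37.04% and 35.7%, Btk 32.4%, 14.9% and 13.2%, and Bmx 3.09%, 2.66% and 7.70%.

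**Figure D2:**
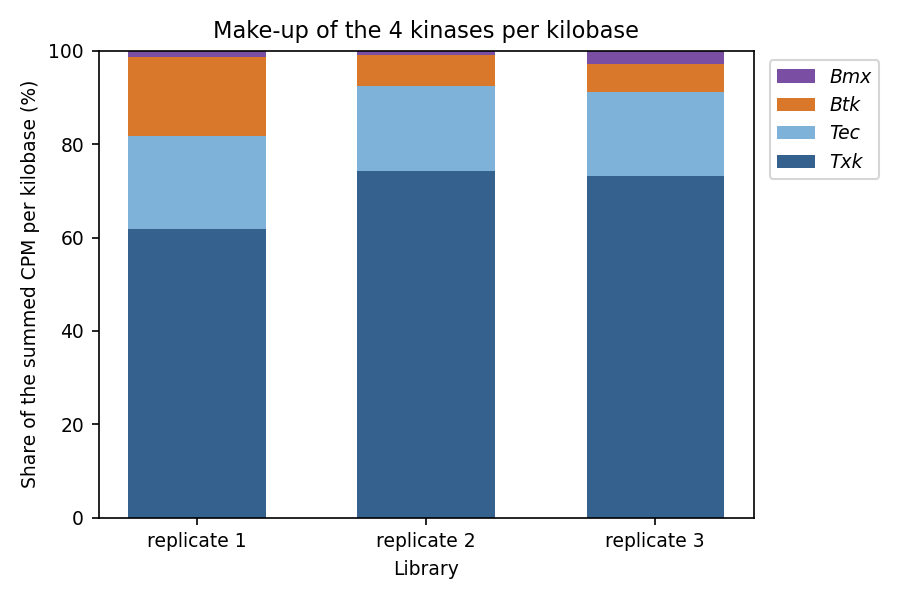
Share (%) of the CPM per kilobase summed over Txk, Tec, Btk and Bmx that each gene held in each of the 3 libraries, as stacked bars from 0 to 100%. With the deposited lengths Txk fills most of every bar (61.8% to 74.3%; 31.3% to 45.4% with GENCODE exon unions), Tec holds 18.1% to 19.8%, and Btk is widest in replicate 1 (17.0%).

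The libraries differed in their marker genes as well, and the kinases' library patterns are given beside them. B cell markers, the lineage that needs BTK, summed to 543, 239 and 304 CPM in replicates 1, 2 and 3. All 12 were highest in replicate 1, as were 45.2% of the genes tested. Btk was also highest there, yet it was lower in replicate 3 than in replicate 2, where the sum of the B cell markers stood the other way. Of the 12 markers, 9 were lowest in replicate 2, and the other 3, Cd79b, Fcer2a and Pax5, stood in Btk's order. Monocyte markers summed to 871, 1754 and 590 CPM. Of these 10, 6 were highest in replicate 2 and 4 in replicate 1, and 2, Csf1r and Fcgr1, stood in Btk's order. Macrophage markers summed to 1032, 99.4 and 231 CPM with 9 of 10 highest in replicate 1, Trem2 at 0 in replicate 1 and Vsig4 at 0 in replicate 2. Type 1 dendritic cell markers, at 336, 271 and 171 CPM, and plasmacytoid dendritic cell markers, at 179, 169 and 125 CPM, were the 2 of 14 marker lists whose sums stood in Btk's order. Of their single markers, 3 of 8 and 4 of 7 did. Among the type 1 markers, Irf8 (75.5 CPM) came next after Wdfy4. Xcr1 (2.01 CPM, adjusted p = 0.261) and Batf3 (1.66 CPM, adjusted p = 0.521) were not separated from 1 CPM in edgeR's test, whereas 6 of the 8 lay above it. Pacsin1 was nearly even, at 66.6, 68.0 and 68.0 CPM. Without Wdfy4 and Pacsin1 the 2 sums kept Btk's order. Highest in these lists were Cr2 (68.6 CPM), Lyz2 (339 CPM), Apoe (171 CPM), Wdfy4 (116 CPM) and Pacsin1 (67.5 CPM). Their part in the level of Btk was not tested, and 3 libraries can fall in only a few orders.

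Txk and Tec stood in the order of the sum of T cell markers, which summed to 3774, 4734 and 4664 CPM and were led by Tcf7 (1003 CPM). Of these 11 markers 6 stood in that order, and without Tcf7 the sum was highest in replicate 3. Txk and Tec also stood in the order of the natural killer cell markers, which summed to 116, 799 and 341 CPM, were all 9 highest in replicate 2 and were led by Eomes (80.9 CPM). Stem and progenitor markers, at 108, 196 and 121 CPM led by Myb (116 CPM) and with Cd34 at 0 in replicate 2, had the same order through Myb. Without Myb they summed to 32.2, 24.4 and 18.6 CPM, the order of Btk, and 5 of 7 were highest in replicate 1. The order of Txk and Tec was that of 23.3% of the genes tested, and 32.0% were highest in replicate 2. The T cell sum spanned 1.25-fold and the natural killer cell sum 6.90-fold, with Txk (2.08-fold) and Tec (1.60-fold) between them. The part of these cells in the levels of Txk and Tec was not tested.

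Bmx was highest in replicate 3, where all 10 neutrophil markers were highest too, 3 of them in Bmx's order. They summed to 203, 107 and 1070 CPM and were led by S100a9 (134 CPM), and Ly6g, a defining marker, was at 0 in replicates 1 and 2. Their sum was lower in replicate 2 than in replicate 1, whereas Bmx was higher in replicate 2. Plasma cell markers, at 181, 219 and 292 CPM and led by Jchain (147 CPM), were the 1 of 14 lists whose sum stood in Bmx's order, as did 3 of its 6 markers. Without Jchain the sum was highest in replicate 2. The order of Bmx was that of 11.9% of the genes tested, and 22.8% were highest in replicate 3. Endothelial markers summed to 213, 158 and 201 CPM. Pecam1, which leukocytes also use, gave most of this with a mean of 177 CPM. Of the defining endothelial markers, Cldn5 was at 0 in all 3 libraries, a count that still permits 0.317 CPM in replicate 1, 0.214 in replicate 2 and 0.228 in replicate 3, Emcn was at 0 in replicates 2 and 3, and Egfl7 was at 0 in replicate 3. The part of neutrophils and plasma cells in the level of Bmx was not tested.

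Other lists moved between libraries without matching a member. Erythroid markers summed to 4357, 67.1 and 312 CPM, led by Hbb-bs (648 CPM), with Epor at 0 in replicate 2. Platelet and megakaryocyte markers summed to 31.7, 4.64 and 17.8 CPM, led by Itga2b (8.75 CPM), with Gp6, Treml1 and Gp9 at 0 in replicate 2. Mast cell and basophil markers summed to 14.3, 9.27 and 33.0 CPM, led by Hdc (11.5 CPM), with Tpsab1 at 0 in replicates 2 and 3 and Cpa3 at 0 in replicate 2.

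**Figure D3:**
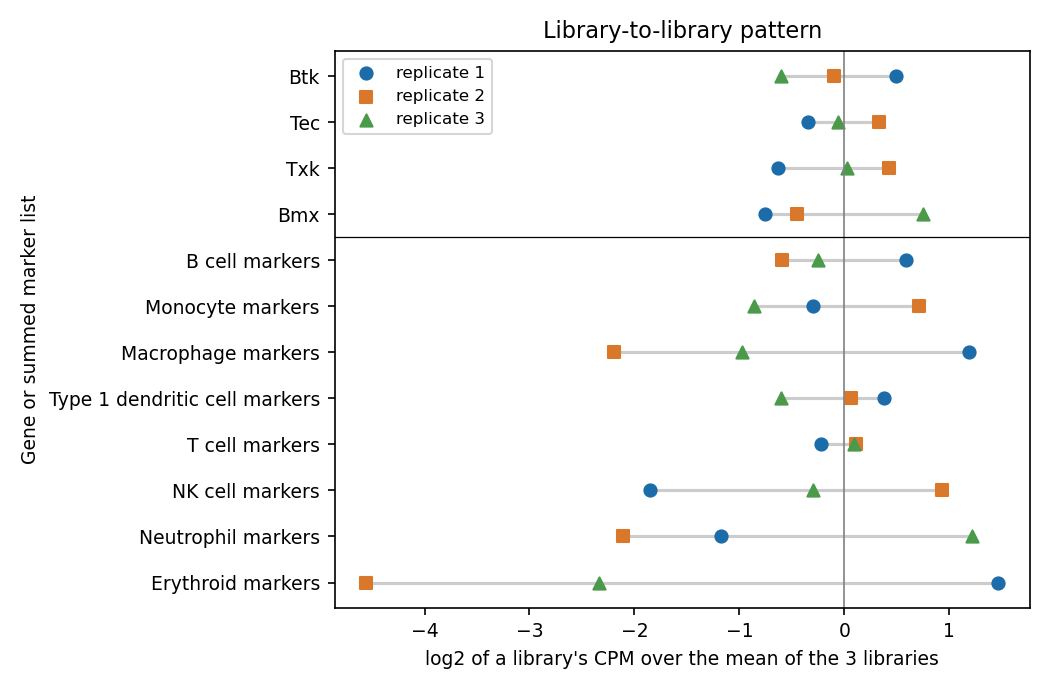
Each library's CPM over the mean of the 3 libraries, on a log2 scale, for Btk, Tec, Txk and Bmx (above the line) and for summed marker lists of 8 cell types (below it). Btk is highest in replicate 1, Tec and Txk in replicate 2 and Bmx in replicate 3, within a span of about 1.5 log2 units, while erythroid markers span about 6.

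By closeness of the pattern over 3 libraries (root mean square difference of log2 CPM centred on each gene's mean, among 12332 other genes with a mean of at least 1 CPM and a count in every library), Bmx stood nearest to Anxa1, which encodes annexin A1, at 0.083. Anxa1 was read at 18.9, 24.96 and 61.97 CPM, and it was the only gene within 0.1 of Bmx. The next were Inpp5j, Tnfrsf12a, Tsc22d3 and Rhou, at 0.102 to 0.150. Nearest to Btk were Smo, Snrnp25, Fbxo27, F2rl2 and Lrig3, at 0.012 to 0.022. Among the nearest to Txk were Cdk6, Kif21b, Septin4 and Gpn2, and nearest to Tec were Snx19, Taf4b, Mon1b, Zfp395 and Mogs. Within 0.1 lay 75 genes for Btk, 359 for Txk and 1181 for Tec, so with 3 libraries these neighbours are a few among many.

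Of 65 genes that act with the TEC kinases, all 65 lay above 1 CPM, where 68.6% of all genes tested did, 37 above 50 CPM (19.9% of all genes) and 22 below it (66.7% of all genes). Without replicate 3, 37 lay above 50 CPM (18.3% of all genes) and 16 below it (36.8% of all genes), so the share below 50 CPM was then closer to that of all genes. Their median level was 106 CPM, against 12.4 CPM for all genes tested. The lists were chosen with earlier results of these data known, so these contrasts with all genes are description only. Per kilobase, the median gene had 13.1 CPM in the B cell receptor list, 4.76 CPM in the myeloid receptor list and 86.8 CPM in the T cell receptor list, against 5.50 CPM over all genes tested.

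Of 10 genes upstream of BTK at the B cell receptor, 2 lay above 50 CPM and 6 below it. These counts are near the shares over all genes tested, 19.9% above and 66.7% below. Syk, the kinase that activates BTK's pathway, was read at 143, 140 and 130 CPM, and Lyn, a SRC family kinase that phosphorylates BTK, at 134, 116 and 68.8 CPM. Like Btk, Lyn was highest in replicate 1 and lowest in replicate 3. Blnk, the adaptor that brings BTK to phospholipase C gamma 2, was read at 21.5, 9.70 and 12.0 CPM, and Blk, a SRC family kinase of B cells, at 20.1, 10.2 and 12.2 CPM. Cd79a and Cd79b, the signalling chains of the receptor, averaged 17.4 ± 7.80 and 23.6 ± 10.8 CPM (SD, n = 3). Of the 10 genes, 9 were highest in replicate 1, where 45.2% of the genes tested were.

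PIP3 is the lipid that recruits most TEC kinases. Of 8 genes that make it, supply the lipid it is made from or remove it, 6 lay above 50 CPM and 2 below it. Over all genes tested the shares were 19.9% and 66.7%. Pik3cd, the leukocyte catalytic subunit of phosphoinositide 3-kinase, was read at 393, 864 and 595 CPM, with replicate 2 high and replicate 1 low, and Pik3r1, a regulatory subunit, at 323, 412 and 389 CPM. On the removing side, Inpp5d, which encodes SHIP1, averaged 213 ± 62.5 CPM (SD, n = 3). All 8 genes were highest in replicate 2, as were Txk, Tec and 32.0% of all genes tested. The lowest were Pip5k1a (34.5 CPM) and Inppl1 (17.4 CPM).

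Of 14 effectors below the TEC kinases, 13 lay above 50 CPM and 1, Bcl10, below it (35.6 ± 2.25 CPM, SD, n = 3). Over all genes tested the shares were 19.9% and 66.7%. Prkcq, the protein kinase C of T cells, was highest with 355, 560 and 541 CPM, followed by Rasgrp1 with 410, 415 and 431 CPM. Of the phospholipases that TEC kinases activate, Plcg1, the form of T cells, was read at 211, 325 and 343 CPM, and Plcg2, the form of B cells and myeloid cells, at 69.2, 116 and 62.7 CPM. Plcg1 was above Plcg2 in every library, also per kilobase on average (66.1 against 19.2 CPM per kilobase). Btk averaged 7.57 CPM per kilobase on the same scale. The high library of Plcg2 was replicate 2, whereas that of Btk was replicate 1.

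All 10 genes upstream of TEC kinases at the T cell receptor lay above 50 CPM (19.9% of all genes). Their median was 286 CPM. Lck, the SRC family kinase that starts signalling at this receptor, was read at 379, 545 and 487 CPM, and Fyn at 342, 522 and 478 CPM. Sh2d2a, which encodes an adaptor that binds TXK, was read at 104, 171 and 137 CPM and Zap70 at 103, 160 and 136 CPM. Like Txk, these 4 were high in replicate 2 and low in replicate 1. Of the 10 genes, 7 were highest in replicate 2 (32.0% of the genes tested) and 3 in replicate 3 (22.8%). Cd247 (339, 255 and 401 CPM) and Cd28 (267, 205 and 312 CPM) were lowest in replicate 2.

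Of 11 genes that restrain TEC kinases or keep them stable, 7 lay above 50 CPM (19.9% of all genes) and 3 below it (66.7%). Prkcb, whose product phosphorylates BTK and lowers its place at the membrane, was read at 296, 495 and 366 CPM. Ptpn6, which encodes the phosphatase SHP-1, averaged 337 ± 45.6 CPM, Ibtk, which encodes an inhibitor of BTK, 153 ± 17.4 CPM, and Sh3bp5, which encodes a protein that binds BTK's SH3 domain, 103 ± 24.1 CPM (SD, n = 3). The lowest were Socs1 (19.1 CPM) and Dok1 (12.3 CPM).

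Of 13 receptors and adaptors of myeloid cells that have been linked to BTK, 0 lay above 50 CPM and 10 below it in edgeR's test. Above 50 CPM there were also 0 with DESeq2, 0 with limma and 0 in edgeR at an unadjusted p under 0.05. Over all genes tested the shares were 19.9% above and 66.7% below. With only 13 genes, no departure from the table as a whole can be read from these counts. Myd88, the adaptor of Toll-like receptors, was highest with 51.99, 63.3 and 65.8 CPM, followed by Fcer1g with 51.3, 51.6 and 30.8 CPM, and neither was separated from 50 CPM. Tlr4 was uneven, with 23.8, 4.21 and 6.15 CPM. The lowest were Fcgr1 with 11.0, 8.91 and 3.42 CPM and Trem1 with 3.80, 0.499 and 10.2 CPM.

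**Figure D4:**
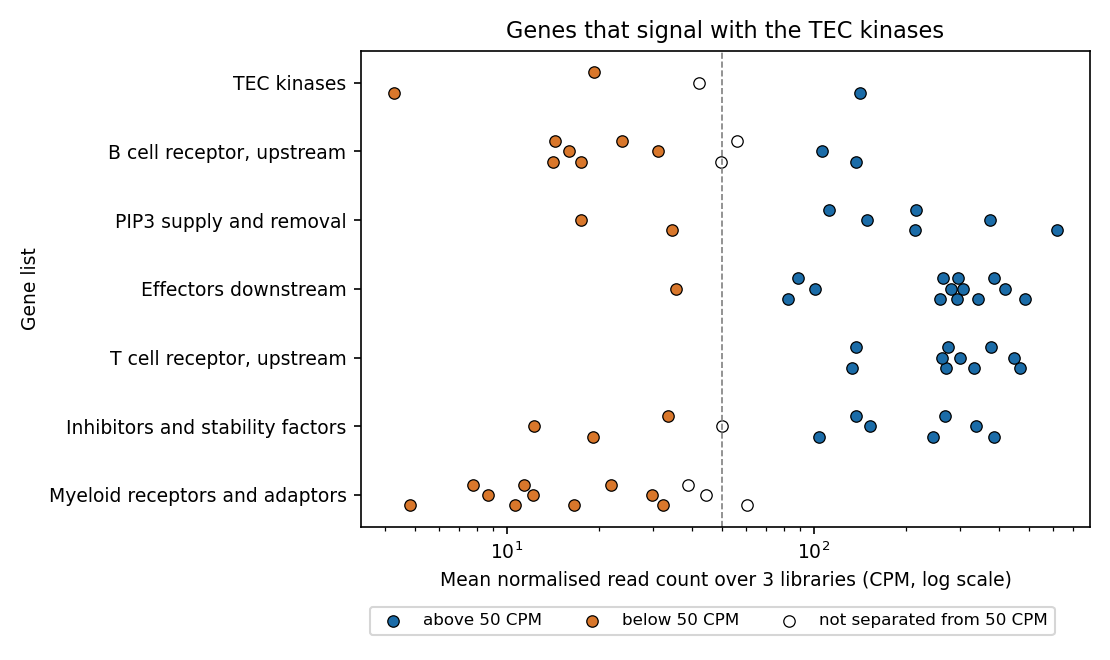
Mean normalised read count over 3 libraries (CPM, log axis) of the TEC kinases and 6 lists of genes that act with them, 1 point a gene, filled blue above 50 CPM, orange below it and white where not separated from it in edgeR's test (vertical spacing carries no value). All 10 genes of the T cell receptor list lie above the dashed 50 CPM line, and 0 of 13 genes of the myeloid list were called above it. Over all genes tested, 19.9% were called above it.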

How the data were processed

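A stranded, low-input total RNA kit and 8 ng of RNA were used per library, per the labels' protocols. The authors deposited whole-number read counts per gene, with a gene length in bases, for 17857 genes in 3 libraries. Build mm10 and the tools STAR 2.75, bcl2fastq, DESeq2 1.18.1 and featureCounts, without roles, come from the submitters' processing notes. The sources used here give neither the strand setting nor any filter. Date-like symbols (25) were restored through Entrez identifiers.

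CPM used TMM factors of 1.04, 1.01 and 0.950 (edgeR 4.0.16). Genes with at least 10 counts in sum, 15490 in all, entered an intercept-only quasi-likelihood test against 1 and, separately, 50 CPM, two-sided, with Benjamini-Hochberg adjustment over all of them and a threshold of 0.05. The test was checked on counts simulated under its own count model, with the spread estimated here. Such a check cannot tell how well that model fits these libraries. No pair of libraries agreed within sampling noise: the chi-square per degree of freedom was 118, 42.7 and 67.4 for the pairs. edgeR's F-test for a model with no other column was written out, with the reference level as null model. Poisson intervals are exact at 95%, and intervals and limits for a count of 0 (3 counts) cover counting error only. Promoter sequences are from RefSeq (GRCm38.p6, all 4 genes matched). The members, 20 lists and the alternatives were chosen with earlier results of these data known. The genes named are the members, the 2 highest and 2 lowest genes of each pathway list with further genes of these lists chosen after their values were seen, the highest and undetected genes of each marker list, and the 5 genes nearest in pattern to each member; some genes of these lists are not reported here. Whether the replicates came from separate animals beyond being repeat experiments was not given, so p-values reflect only how these samples vary, possibly for technical reasons.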

Additional observations from a re-analysis of the deposited data

How the results depend on the processing

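The 11 alternatives were DESeq2's size factors, library totals alone, leaving out mitochondrial genes, no filter on low counts, edgeR's expression filter, robust empirical Bayes, the DESeq2 (1.42.0) Wald test, limma-voom (3.58.1) and leaving out each library. Directions of Txk, Tec, Btk and Bmx against both references held in all of them. The 2 calls that changed were those of Bmx against 1 CPM without replicate 3 and of Tec against 50 CPM without replicate 2. Of the 4 members, 3 to 4 lay above 1 CPM, 1 above 50 CPM and 2 to 3 below 50 CPM. Over all genes, 10281 to 10809 lay above 1 CPM and 2745 to 3454 above 50 CPM. Below 50 CPM lay 10336, but 6202 with edgeR's expression filter, which tests fewer genes, and 12671 with no filter, and 5513 to 10588 when each library was left out, the lowest without replicate 3; the cause was not tested. Leaving out mitochondrial genes raised the median gene by 0.19 on the log2 scale, and the values of all members with it. The 6 mean differences between members are taken within libraries, so the scaling of a library cancels and cannot change them. They kept their sign when each library was left out. They also kept it under both other lengths, which were chosen after seeing the data. The alternative with protein lengths was not run. No paired analysis was possible because the series has 1 group. Bmx, with 24 to 95 counts, is the member most limited by depth.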
